A study of Mus musculus with 4 samples.

Results

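Guanylate-binding proteins are large GTPases of the dynamin superfamily whose genes are switched on by interferons. The genes described here are 8 members of the mouse family, Gbp2, Gbp3, Gbp4, Gbp5, Gbp6, Gbp7, Gbp8 and Gbp9, out of 53647 genes in the deposited count tables. They were chosen by symbol, and all 8 were found in the tables through their Ensembl identifiers. RNA sequencing had been carried out on 4T1 cells, a mouse mammary carcinoma line derived from a BALB/c tumour and labelled as wild type. One group of 2 libraries came from cells given uniSTING mRNA, which encodes a designed protein that mimics activated STING, an adaptor of innate immune signalling. The Mock group of 2 libraries came from cells given mRNA for the fluorescent protein EGFP, so both groups had received a foreign mRNA. The labels describe the TransIT-mRNA agent and SS-OP lipid nanoparticles as ways to deliver mRNA, but not which one each library had, and state no dose or exposure time. The replicates are numbered preparations of 1 cell line; the labels do not say that they came from separate cultures, and every p-value here therefore rests on a spread between libraries that may be technical.

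In mouse cells these proteins assemble on the vacuoles of intracellular parasites and on bacterial surfaces. They work there with the immunity-related GTPases and the ATG8 conjugation system of autophagy, and they promote activation of caspase-11 and of the AIM2 inflammasome. Type I interferon acts on such genes through the interferon-stimulated response element, which binds a complex that contains STAT2 and IRF9. Interferon gamma acts through the gamma-activated site and through the induced factor IRF1. The mouse genes lie in a pair of clusters, on chromosomes 3 and 5.

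The chromosome 3 cluster spanned 175.4 kb and held 4 of the members, all on the plus strand and in the order Gbp5, Gbp7, Gbp3 and Gbp2 (GRCm39). Promoter sequences were available for these 4 members, from RefSeq on GRCm38.p6, and are shown because they could be searched for the response elements that interferons use. Each window runs 5′ to 3′ along the plus strand over 250 bases before an annotated transcript start and 50 bases from it on. Capitals mark the core of the interferon-stimulated response element on either strand, searched as GAAA, any 2 bases and a second GAAA. The windows lie at chr3:142496684-142496983 for Gbp5, chr3:142530086-142530385 for Gbp7, chr3:142559794-142560093 for Gbp3 and chr3:142620413-142620712 for Gbp2.
Gbp5: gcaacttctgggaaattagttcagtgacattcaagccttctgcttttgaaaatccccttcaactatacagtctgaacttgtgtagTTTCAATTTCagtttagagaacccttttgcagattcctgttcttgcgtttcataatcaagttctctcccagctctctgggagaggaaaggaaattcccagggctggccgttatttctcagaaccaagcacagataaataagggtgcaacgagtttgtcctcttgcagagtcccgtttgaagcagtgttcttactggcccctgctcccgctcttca
Gbp7: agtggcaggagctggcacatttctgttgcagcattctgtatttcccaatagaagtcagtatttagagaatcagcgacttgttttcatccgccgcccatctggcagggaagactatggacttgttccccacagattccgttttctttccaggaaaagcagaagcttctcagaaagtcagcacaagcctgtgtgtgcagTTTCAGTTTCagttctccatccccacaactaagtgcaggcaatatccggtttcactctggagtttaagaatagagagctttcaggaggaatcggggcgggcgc
Gbp3: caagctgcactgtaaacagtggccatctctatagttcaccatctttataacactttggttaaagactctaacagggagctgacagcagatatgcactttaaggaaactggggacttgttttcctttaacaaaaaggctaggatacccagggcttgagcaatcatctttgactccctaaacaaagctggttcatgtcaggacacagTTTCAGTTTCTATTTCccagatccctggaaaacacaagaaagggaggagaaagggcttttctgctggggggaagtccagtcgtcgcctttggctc
Gbp2: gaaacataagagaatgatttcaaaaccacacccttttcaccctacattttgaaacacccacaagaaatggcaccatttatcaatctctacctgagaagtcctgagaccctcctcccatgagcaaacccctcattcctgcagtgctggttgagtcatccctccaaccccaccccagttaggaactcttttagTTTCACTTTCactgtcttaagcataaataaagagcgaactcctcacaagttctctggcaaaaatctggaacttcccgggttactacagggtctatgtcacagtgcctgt

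The core was present in all 4 of these windows, always on the minus strand, and in 3.44% of the 32851 windows of the same length in the whole table. Its first base lay 165 bases upstream of the start in Gbp5, 53 in Gbp7 and 59 in Gbp2. The Gbp3 window held 2 overlapping copies, at 45 and 39 bases, while a second annotated start of Gbp3 had none. The gamma-activated site, searched as TTCNNNGAA, which is its own reverse complement, was found at 2 places each in Gbp5 and Gbp7, against 8.30% of all windows with a match. No match to these letters was found in the Gbp3 and Gbp2 windows. An NF-kB motif, searched on both strands as GGGA, any base and TTTCC, was found in Gbp5 and in 0.411% of all windows. Gbp2b, a family gene between Gbp3 and Gbp2 that encodes the protein called GBP1 in mouse, also held the response element core, 137 bases upstream. These are matches of letters in a window and not measured binding sites.

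**Figure D1:**
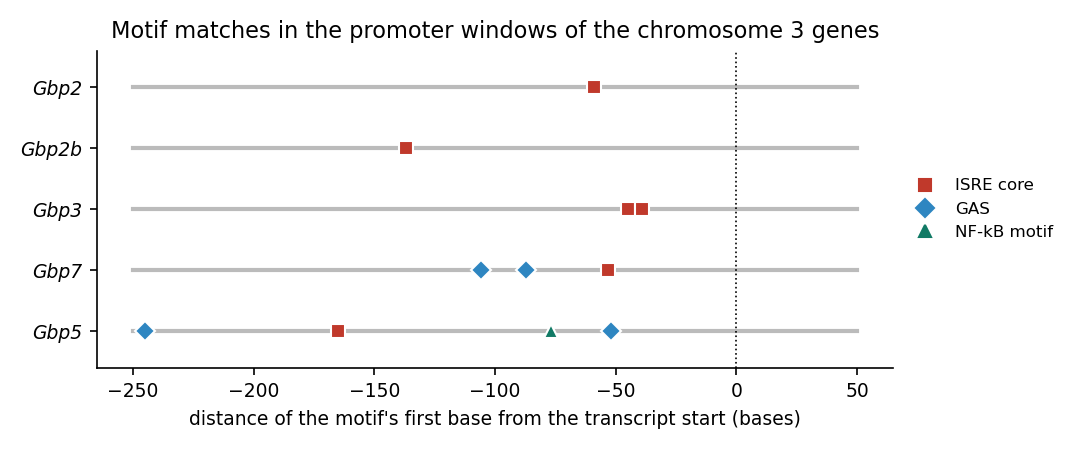
Positions of motif matches in the promoter windows of the chromosome 3 genes, with the distance of each motif's first base from the annotated transcript start on the x axis in bases and 1 gene per line. ISRE is the interferon-stimulated response element and GAS the gamma-activated site; every gene has an ISRE core, and Gbp5 and Gbp7 each have 2 GAS matches as well.

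Setting uniSTING against Mock asks which transcripts differ when the mRNA encodes the mimic in place of EGFP. Gbp3, Gbp7 and Gbp4 rose at least 2-fold in uniSTING, Gbp9 rose 1.44-fold with a call that depended on the setting, and the most abundant member, Gbp2, did not pass the test. Gbp5 was scarce and did not pass, and Gbp6 and Gbp8 were near the limit of detection. Of the 8 members, 6 passed the filter on low counts, and 4 of these rose, none fell and 2 did not pass (edgeR quasi-likelihood test, Benjamini-Hochberg adjusted p under 0.05 over 12972 genes). Across all genes tested 50.2% were called, 24.9% as higher and 25.4% as lower. Gbp5 passed the filter only through its uniSTING libraries, so it entered the test through the group in which it was higher. The median log2 fold change was 1.00 over the other 5 tested members, and 0.01 over all genes tested. A rise of at least 2-fold was found in 3 members and in 2.00% of all genes tested. Gbp3 lay at that fold, at 2.00, and Gbp9 was well short of it, at 1.44. Over the alternative settings the log2 fold change ranged from 0.89 to 1.12 for Gbp3 and from 0.93 to 1.14 for Gbp7. Both ranges include values under 2-fold, and the test asked for a difference from no change.

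Total counts were 18843543 and 25071840 in the uniSTING libraries and 17502694 and 22039546 in the Mock libraries. Levels are given in CPM, counts scaled to 1000000 per library after TMM normalization, which offsets differences in library composition. The variance between libraries of a group was 1.47 to 1.52 times that of counting alone, and 12.9 to 15.4 times between libraries of different groups. Of the epithelial markers, Krt8, Krt18, Krt19, Epcam and Cdh1 were all detected, with summed levels of 3541 and 3567 CPM in uniSTING and 3461 and 3487 CPM in Mock. Within that sum Krt19 rose by 1.00 on the log2 scale (edgeR adjusted p = 3.91e-09) and Cdh1 fell by 0.20 (edgeR adjusted p = 2.79e-06). The log2 fold changes of Epcam, Krt8 and Krt18 were 0.15, 0.05 and 0.02. The summed level of 8 immune cell markers was 6.62 and 1.21 CPM in uniSTING and 3.86 and 0.996 CPM in Mock, so that it was higher in both replicate 1 libraries. Itgam, a marker of myeloid cells, had no count in any library. Ptprc, which encodes the leukocyte antigen CD45, had 19 and 0 counts in uniSTING and 8 and 0 counts in Mock, and S100a8 had 79 and 2 counts in uniSTING and 37 and 0 counts in Mock. The macrophage receptor gene Csf1r was similar in all libraries, at 1.23 and 1.12 CPM in uniSTING and 1.19 and 0.996 CPM in Mock (edgeR adjusted p = 0.824). Of 6 stromal and endothelial markers, none at 0 in all libraries, the summed level was 10.8 and 8.76 CPM in uniSTING and 9.42 and 6.88 CPM in Mock. Most of it was Pdgfra, at 8.91 and 8.56 CPM in uniSTING and 7.15 and 6.38 CPM in Mock. Pdgfra rose by 0.37 on the log2 scale (edgeR adjusted p = 0.0243), a call lost with DESeq2 (adjusted p = 0.19). Pecam1, Cdh5 and Dcn had few counts, with more in replicate 1 than in replicate 2 in both groups. Pdgfrb and Lum did not follow this in Mock. The part of these markers in the results was not tested.

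Gbp3 (ENSMUSG00000028268) lies on chromosome 3 from 142265787 to 142278970, and its product is among the proteins that coat the Toxoplasma vacuole in mouse cells. It had 301 and 388 counts in the uniSTING libraries and 128 and 187 counts in the Mock libraries. That is 16.1 and 15.6 CPM in uniSTING, against 7.26 and 8.46 CPM in Mock. The groups did not overlap, and the libraries within a group differed far less than the groups. The level was 15.8 ± 0.339 CPM in uniSTING and 7.86 ± 0.848 CPM in Mock (SD, n = 2 libraries each). The log2 fold change was 1.00 (SE 0.10, edgeR adjusted p = 1.17e-05), and within replicate number 1 it was 1.14 and within number 2 0.87. This was the smallest adjusted p of the family.

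Gbp7 (ENSMUSG00000040253, chromosome 3, 142236103 to 142255910) encodes another protein of the vacuole coat. It measured 5.92 and 6.07 CPM in the uniSTING libraries, and 2.72 and 3.12 CPM in the Mock libraries. Both uniSTING libraries stood above both Mock libraries. The log2 fold change was 1.03 (SE 0.16, edgeR adjusted p = 0.000346), and within replicate number 1 it was 1.10 and within number 2 0.94. Of its exon bases, 11.3% are shared with the annotated gene Gm43802, which had no count in any library. A read that falls on both genes is assigned to neither by the counting used. The lack of counts for Gm43802 therefore does not show how many reads Gbp7 lost in the shared part.

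Gbp2 (ENSMUSG00000028270, chromosome 3, 142326363 to 142343769), needed with Gbp5 for full AIM2 inflammasome activation by cytosolic bacteria in mouse macrophages, was the most abundant member. It had 404 and 469 counts in the uniSTING libraries and 333 and 386 counts in the Mock libraries. Scaled to depth these were 21.6 and 18.8 CPM in uniSTING, and 18.9 and 17.5 CPM in Mock. The groups overlapped, as the lower uniSTING library lay just below the higher Mock library. The log2 fold change was 0.15 (SE 0.09, edgeR adjusted p = 0.177). The ratio of summed counts was 1.11, with an exact 95% binomial interval from 1.0005 to 1.22 that covers counting error only. This interval barely leaves out no difference, and a 2-fold difference such as that of Gbp3 lies well outside it.

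Gbp5 (ENSMUSG00000105504, chromosome 3, 142199739 to 142228105), which promotes inflammasome assembly in mouse macrophages, had 17 and 16 counts in the uniSTING libraries and 8 and 9 counts in the Mock libraries. At 0.907 and 0.643 CPM in uniSTING and 0.454 and 0.407 CPM in Mock the groups did not overlap. Its log2 fold change of 0.83 had a wide error (SE 0.49, edgeR adjusted p = 0.184). The ratio of summed counts was 1.77 (95% counting interval 0.957 to 3.38), which includes both no difference and a 2-fold one.

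The chromosome 5 cluster spanned 332.3 kb on the minus strand and held Gbp4, Gbp6, Gbp8 and Gbp9. In the annotation used for counting, Gbp4, Gbp8 and Gbp9 begin within 47 bases of one another and overlap in 60 or 61 exon bases. The shared part came to 61 of 7494 exon bases in Gbp4, 60 of 5173 in Gbp9 and 61 of 3443 in Gbp8, so that most reads could be given to 1 of them. Gbp4 and Gbp9 had enough counts to be tested and Gbp8 did not.

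Gbp4 (ENSMUSG00000079363, chromosome 5, 105263633 to 105287452), whose product has been reported to bind the transcription factor IRF7 in mouse cells, had the highest fold change among the tested members. It had 85 and 105 counts in the uniSTING libraries and 28 and 42 counts in the Mock libraries. The levels were 4.54 and 4.22 CPM in uniSTING, against 1.59 and 1.90 CPM in Mock, without overlap. The log2 fold change was 1.31 (SE 0.21, edgeR adjusted p = 0.000324), and within replicate number 1 it was 1.46 and within number 2 1.11. Its SE overlaps those of Gbp7, and differences between the fold changes of members were not tested.

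Gbp9 (ENSMUSG00000029298, chromosome 5, 105225496 to 105287405), also found on the Toxoplasma vacuole in mouse cells, measured 6.14 and 4.98 CPM in the uniSTING libraries and 3.86 and 3.85 CPM in the Mock libraries. The groups did not overlap, but the uniSTING libraries lay further apart than those of Gbp3 or Gbp7. The log2 fold change was 0.52 (SE 0.17, edgeR adjusted p = 0.0236), and within replicate number 1 it was 0.66 and within number 2 0.37. The call was lost with DESeq2 (adjusted p = 0.147), without uniSTING replicate 1 (edgeR adjusted p = 0.136) and without Mock replicate 1 or 2 (edgeR adjusted p = 0.0822 and 0.0862).

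Gbp8 (ENSMUSG00000034438, chromosome 5, 105162016 to 105287406) had 4 and 4 counts in the uniSTING libraries and 6 and 2 counts in the Mock libraries. The ratio of 0.911 had a 95% counting interval from 0.298 to 2.78. Gbp6 (ENSMUSG00000104713, chromosome 5, 105418568 to 105441564), another vacuole coat protein in mouse cells, had 2 and 1 counts in the uniSTING libraries and 0 and 3 counts in the Mock libraries, 3 in each group. Neither gene entered the test, and for both the groups overlapped. Of Gbp6, 29.0% of the exon bases are shared with the annotated gene Gm43302, and its low counts are therefore uncertain as a level. In addition, 70.7% of the 50-base stretches in its GENCODE M21 transcripts also occur in transcripts of other genes, with Gm43302 holding the largest share, and only uniquely mapped reads were counted. The same share was 18.1% for Gbp8, 12.7% for Gbp7 and from 1.44% to 8.05% for the other members, so that sharing of this size was found in Gbp6 alone among the members.

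**Figure D2:**
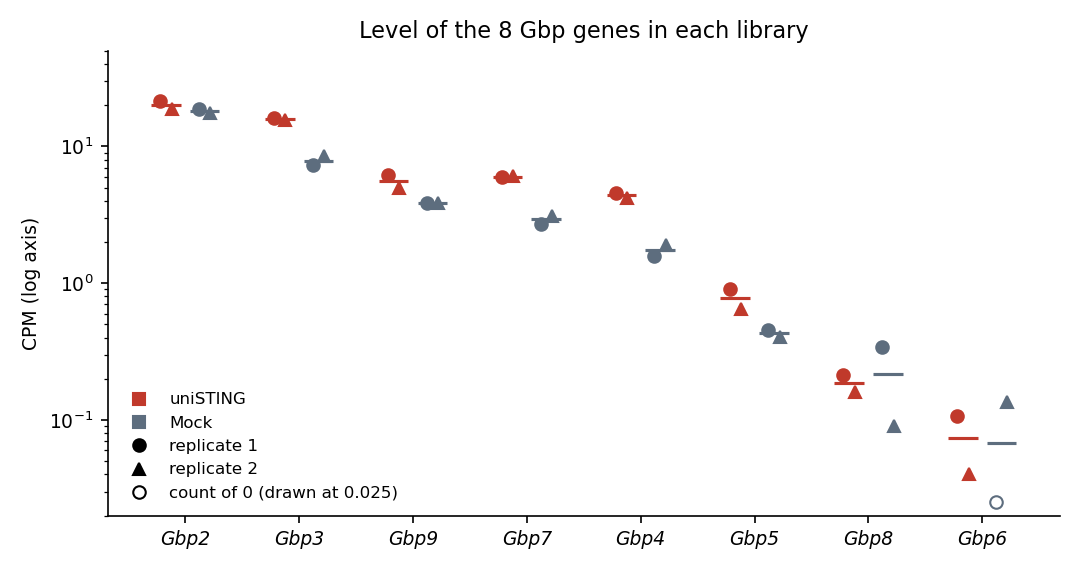
Level of each member in each of the 4 libraries, in CPM on a log axis, with members ordered by mean level per kb of exon and lines at the group means. Gbp3, Gbp7, Gbp4, Gbp9 and Gbp5 have both uniSTING libraries above both Mock libraries, while the groups overlap for Gbp2, Gbp8 and Gbp6.

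Both uniSTING libraries stood above both Mock libraries in 5 of the 6 tested members, a pattern found in 37.8% of all genes tested. Without Gbp5, which entered the test through uniSTING, it was 4 of 5, and the exception was Gbp2. Summed over the 8 members, the level was 55.5 and 50.5 CPM in uniSTING, and 35.1 and 35.4 CPM in Mock. The 4 chromosome 3 members made up 44.5 and 41.1 CPM in uniSTING and 29.3 and 29.5 CPM in Mock, and the 4 chromosome 5 members 11.0 and 9.40 CPM in uniSTING and 5.79 and 5.97 CPM in Mock. Most of the family's reads thus came from the chromosome 3 cluster in both groups. In bulk samples, more cells that express a gene and more RNA per cell cannot be told apart.

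**Figure D3:**
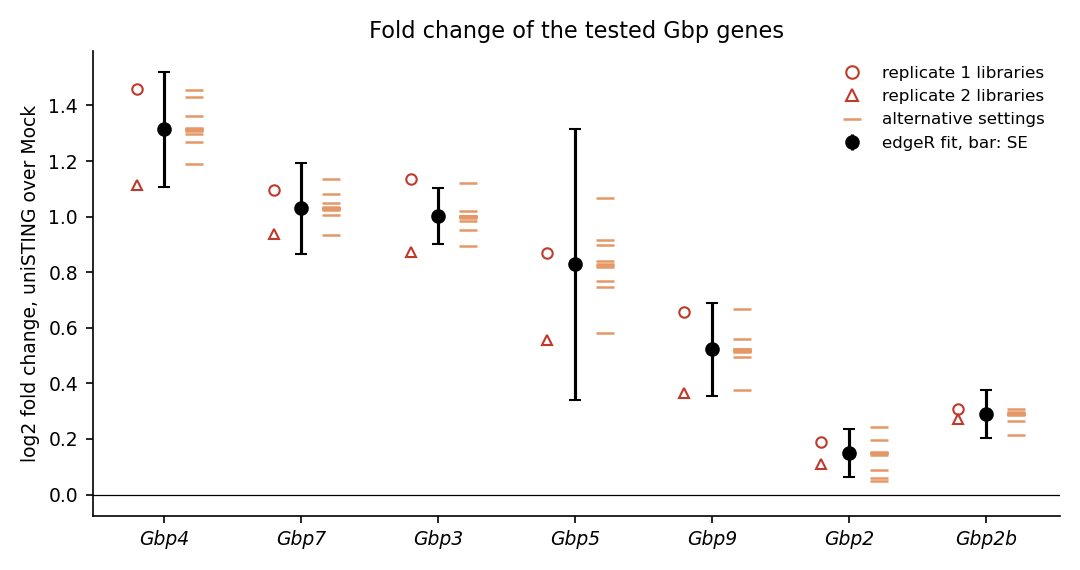
Log2 fold change of uniSTING over Mock for the 6 tested members and for Gbp2b, with the edgeR estimate and its SE in black, the fold change within each replicate number as open symbols and the values under the alternative settings as dashes. Every value lies above 0; Gbp4, Gbp7 and Gbp3 lie at 0.87 or above throughout, whereas Gbp2 lies between 0.05 and 0.24.

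Levels of different genes were compared per kb of exon. In this unit Gbp2 ranked highest in both groups, at 8.57 and 7.49 CPM per kb in uniSTING and 7.51 and 6.94 CPM per kb in Mock. The next member in the order, Gbp3, stood at 4.92 and 4.77 CPM per kb in uniSTING and 2.22 and 2.59 CPM per kb in Mock. Neither of them overlapped with any other member in any library. Gbp9 and Gbp7 followed, at 1.19 and 0.963 CPM per kb for Gbp9 and 1.06 and 1.08 CPM per kb for Gbp7 in uniSTING, where their ranges overlap. In Mock, Gbp9 lay above Gbp7, at 0.746 and 0.744 CPM per kb against 0.485 and 0.556 CPM per kb. Gbp4 was next, at 0.605 and 0.563 CPM per kb in uniSTING and 0.212 and 0.254 CPM per kb in Mock. The order of Gbp5, Gbp8 and Gbp6 at the low end rests on a few counts each. The order of the group means per kb was the same in both groups. Without division by length Gbp7 had the higher mean of the pair in uniSTING, where the CPM values of Gbp7 and Gbp9 given above overlap, and Gbp9 the higher in Mock, where they do not.

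With unequal fold changes the make-up of the listed members' counts differed between the groups. Gbp2 took 38.9% and 37.3% of the members' counts in the uniSTING libraries, and 53.8% and 49.3% in the Mock libraries. The exact 95% binomial intervals were 35.9 to 41.9% and 34.6 to 40.0% in uniSTING, and 49.8 to 57.8% and 45.7 to 52.9% in Mock, with no overlap between groups. Gbp3 took 29.0% and 30.8% in uniSTING and 20.7% and 23.9% in Mock. Gbp4 took 8.18% and 8.35% in uniSTING, against 4.52% and 5.36% in Mock. The shares of Gbp9 overlapped between the groups, at 11.1% and 9.86% in uniSTING and 11.0% and 10.9% in Mock. Per kb of exon, Gbp2 made up 51.8% and 49.9% of the members' sum in uniSTING and 66.2% and 62.0% in Mock. All these shares leave out Gbp2b, a family gene that is not among the listed members. Gbp2b stood at 4.86 and 4.87 CPM per kb in uniSTING and 3.92 and 4.02 CPM per kb in Mock, so shares of the whole family would be lower.

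**Figure D4:**
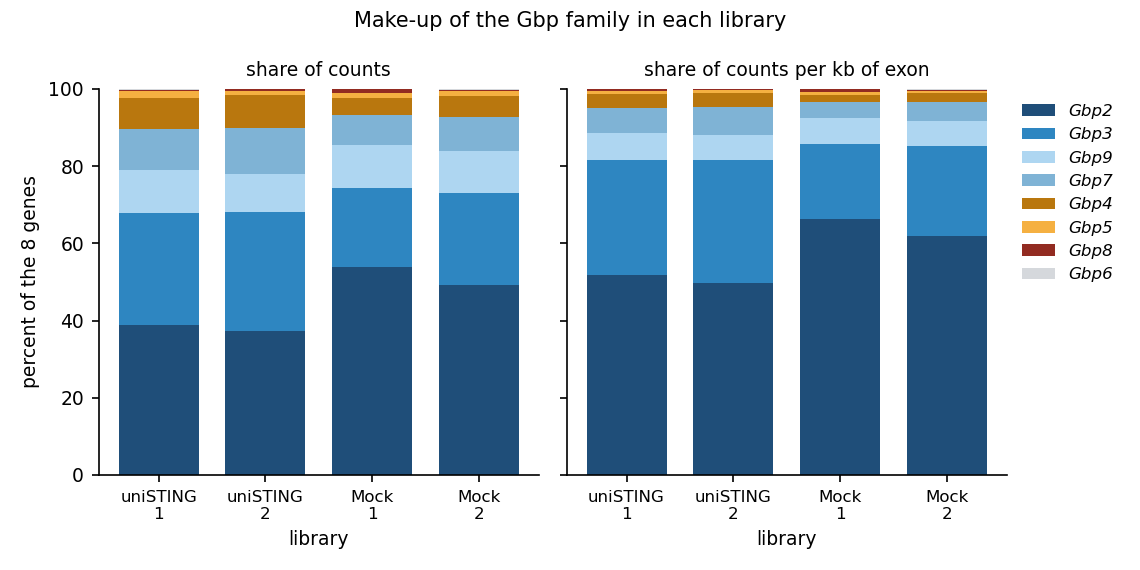
Percent of the 8 members' counts (left) and of their counts per kb of exon (right) that came from each gene, with 1 bar per library. The Gbp2 segment is smaller and the Gbp3 segment larger in both uniSTING bars than in both Mock bars.

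The other loci with a Gbp symbol were examined as well. Gbp2b (ENSMUSG00000040264, chromosome 3, 142300608 to 142324940) measured 13.7 and 13.7 CPM in uniSTING and 11.1 and 11.4 CPM in Mock, a log2 fold change of 0.29 (SE 0.09, edgeR adjusted p = 0.0162). That call was lost with DESeq2 (adjusted p = 0.187), with the length trend removed (edgeR adjusted p = 0.0635) and in 3 of the 4 fits that left out a library (edgeR adjusted p from 0.0569 to 0.0701). Gbp10 had 7 and 12 counts in uniSTING and 5 and 0 counts in Mock, but 84.1% of its 50-base stretches also occur in other genes. Gbp11 had 3 counts in all, and the pseudogene Gbp2-ps had none. Along the chromosome 3 cluster the fold changes of the neighbouring genes Gbp3 and Gbp2b thus differed in size, at 2.00 and 1.22, a difference that was not tested.

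The 2 nearest tested genes on each side of each cluster were chosen for comparison after the members' values had been seen. On chromosome 3, Pdlim5 lies 98.3 kb before the cluster and fell by 0.18 on the log2 scale (edgeR adjusted p = 0.00213), a call lost with the length trend removed (-0.03, edgeR adjusted p = 0.582). Kyat3, 31.7 kb after it, did not pass (log2 fold change 0.04). Gtf2b, 95.7 kb after it, rose by 0.22 (edgeR adjusted p = 0.00267). On chromosome 5, Lrrc8b lies 69.3 kb after the cluster and fell by 0.56. The other 4 lie further off and did not pass, with wide errors for the scarce ones. Their log2 fold changes were 0.55 (SE 0.37) for Gm2451, 2844 kb before the chromosome 3 cluster, and 0.85 (SE 0.48) for Gm8258, 237 kb before the chromosome 5 cluster. D930016D06Rik, 459.9 kb before the chromosome 5 cluster, and Gm42141, 149 kb after it, had values of -0.20 (SE 0.09) and -1.29 (SE 0.55).

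**Figure D5:**
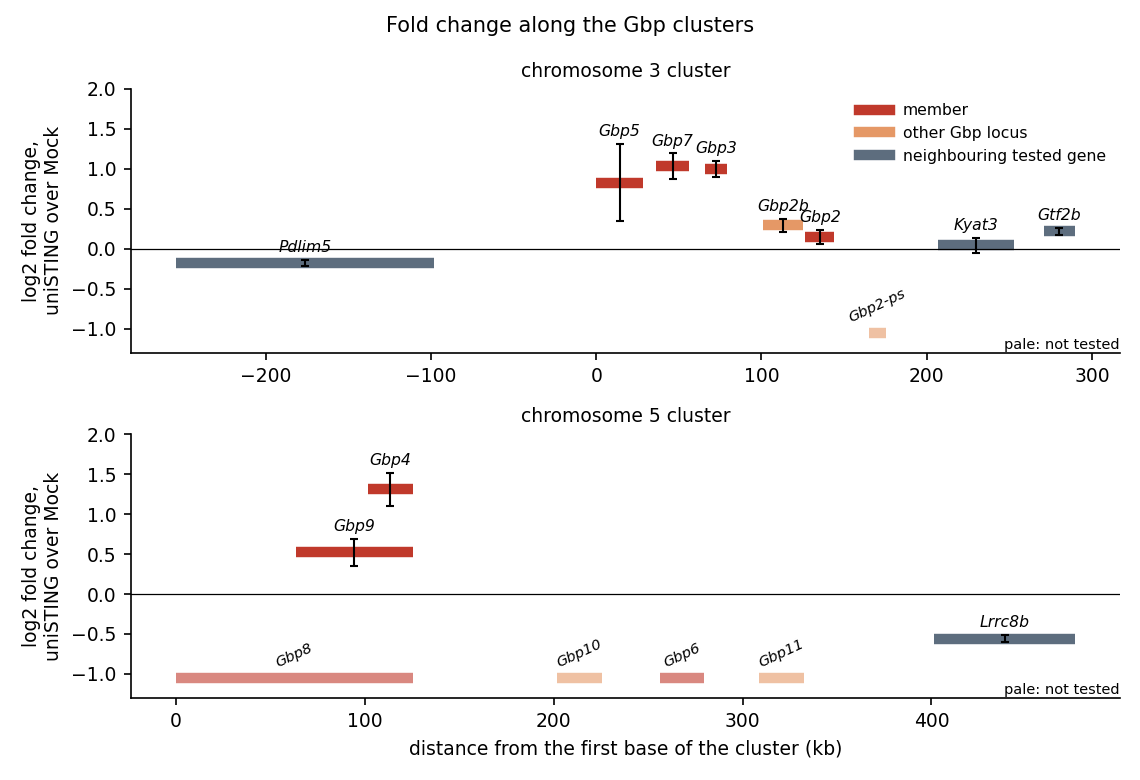
Log2 fold change of uniSTING over Mock (y axis, bars: SE) of genes along the chromosome 3 and chromosome 5 clusters, drawn to scale by distance in kb from the first base of each cluster. Pale bars near the bottom mark loci that were not tested. Neighbours under 1 CPM are left out, and so is D930016D06Rik, which lies 459.9 kb before the chromosome 5 cluster. Gbp7, Gbp3 and Gbp4 lie at or above 1.00, while Gbp2b, Gbp2 and the neighbours drawn (Pdlim5, Kyat3, Gtf2b and Lrrc8b) lie at 0.29 or below. Gbp5 and Gbp9 lie between them, at 0.83 and 0.52. The scarce neighbours left out, Gm8258, Gm2451 and Gm42141, had values of 0.85, 0.55 and -1.29 with wide errors.

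The genes that carry interferon signals to the family were taken from lists, whose counts stand beside 24.9% of all genes tested called higher and 25.4% called lower. Of 8 transcription factor genes, 5 rose, 1 fell and 2 did not pass, with a median log2 fold change of 0.39. Irf9 and Stat2, whose products act at the response element, rose by 1.13 (SE 0.09) and 0.48 (SE 0.08). Irf7, which amplifies type I interferon production, rose by 2.12 (SE 0.20). Irf1, at 73.6 CPM on average in uniSTING and 72.2 CPM in Mock, did not pass (edgeR adjusted p = 0.613), and neither did Irf3. Irf2, a factor that can repress such genes, fell by 0.22 (edgeR adjusted p = 0.0191), a call lost in 3 of 11 alternatives, and Irf8 rose by 0.29 (edgeR adjusted p = 0.0489), a call lost in 8 of 11 alternatives. Of 7 receptor and kinase genes, none rose and 3 fell, with a median of -0.10. Jak1 fell by 0.26 (edgeR adjusted p = 1.89e-05), while Ifnar1 and Tyk2 fell by 0.16 and 0.27 with calls that were lost in 4 and 5 of 11 alternatives.

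Genes for proteins that act together with guanylate-binding proteins gave the following counts, to be read beside the same shares of all genes tested, 24.9% higher and 25.4% lower. Of 11 immunity-related GTPase genes, 4 did not enter the test. Of the 7 tested, 5 rose and 2 did not pass, with a median log2 fold change of 1.28. Without Iigp1, which passed the filter only through uniSTING, 4 of 6 rose and the median was 0.82. Irgm2 and Igtp rose by 1.48 (SE 0.16) and 1.43 (SE 0.19), and Irgm1 rose by 0.35 (SE 0.07). Of 11 genes of ATG8 conjugation, 7 rose and none fell, with a median of 0.26. Gabarapl2 rose by 0.46, Gabarap by 0.42 and Atg5 by 0.23, the last a call lost with the length trend removed (edgeR adjusted p = 0.0639). With that trend removed Gabarapl2 and Gabarap kept their calls at smaller values, 0.35 and 0.26. Of 11 inflammasome and pyroptosis genes, 5 had too few counts to enter the test. Aim2, 1 of these, had 5 and 7 counts in uniSTING and 0 and 0 counts in Mock. Pycard, also untested, had 2 and 2 counts in uniSTING and 8 and 5 counts in Mock. Of the 6 tested genes 4 rose and none fell, with a median of 0.24. Among them Casp4, which encodes caspase-11 in mouse, rose by 0.83 (SE 0.24, edgeR adjusted p = 0.0140), a call lost in 4 of 11 alternatives. Casp8 rose by 0.21, and Ninj1 by 0.23 with a call lost in 3 of 11 alternatives. Of 7 genes of CaaX prenylation, the lipid modification that anchors some family members such as Gbp2 and Gbp5 in membranes, 1 rose and 2 fell, with a median of -0.00085. Icmt, the carboxyl methyltransferase of prenylated proteins, fell by 0.37 (SE 0.05, edgeR adjusted p = 7.73e-05). Pggt1b, the beta subunit of the geranylgeranyl transferase, fell by 0.36 (SE 0.08, edgeR adjusted p = 0.00421), a call lost with the length trend removed (edgeR adjusted p = 0.227), and Pde6d rose by 0.48.

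Fold changes in these libraries followed gene length, so each member was set beside the trend at its own exon length. The trend was -0.12 on the log2 scale at the length of Gbp4 (7494 bases), -0.05 at that of Gbp7 (5614 bases), 0.05 at that of Gbp3 (3265 bases) and 0.10 at that of Gbp2 (2516 bases). With the trend removed, the log2 fold changes were 1.43 for Gbp4, 1.08 for Gbp7, 0.95 for Gbp3, 0.56 for Gbp9 and 0.05 for Gbp2. All 4 calls among the members were kept. The profile over the 4 libraries nearest to that of Gbp2, by Euclidean distance of log2 CPM centred per gene, was found in Ak6, followed by Mettl23, Itpkc, Il18 and Snhg15, out of 11813 genes. None of these 5 genes passed the test, and with 4 libraries many genes lie close to any such profile.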

How the data were processed

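The authors deposited raw counts per gene, 1 table per library. Per the file headers, featureCounts 2.0.1 summed read pairs over the exons of each gene (Ensembl 103, GRCm39), from alignments named as uniquely mapped and with no strand setting. HISAT2 is the aligner in the submitters' processing notes; the sources used here give no version. Without strand, reads of overlapping and antisense genes cannot be told apart.

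Symbols came from an identifier table that matched 52093 of 53647 genes. The test was the quasi-likelihood F test of edgeR 4.0.16 (R 4.3.3) for group, after TMM scaling and filterByExpr (minimum count 10, minimum total 15, about 0.489 CPM in 2 libraries); p-values of all 12972 genes were adjusted together by Benjamini-Hochberg. SE values derive from the F statistic and are approximate. CPM are counts over the TMM-scaled library size, with log2 fold changes within a replicate number using a prior count of 2. Intervals and limits cover counting error only. The test was checked on simulated counts. The simulation gave all genes the same spread and drew the libraries independently, so it could not check the p-values against the spread in these data. Promoters came from RefSeq (GRCm38.p6) and matched 4 of the 8 members; Gbp4, Gbp6, Gbp8 and Gbp9 have none here. The rule for named genes took all members, other Gbp loci, all tested transcription factors of the list, up to 3 genes with the smallest p of each other list, and the 5 nearest profiles to the most abundant member; those named beyond it were chosen after their values were seen, and results of some listed genes are not reported here. Alternatives were DESeq2 size factors, no filter, a filter of 1 CPM in 2 libraries, DESeq2 1.42.0, limma-voom (limma 3.58.1), a block for replicate number, each library left out in turn, removal of a length trend (lowess, span 0.3) and a 2-fold threshold. The members and lists were chosen with earlier results of these data known.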

Additional observations from a re-analysis of the deposited data

How the results depend on the processing

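The number of members higher in uniSTING was 4 in the fit reported, and 3 with DESeq2, 3 to 4 when 1 library was left out, 3 with the 2-fold threshold added and 4 under every other alternative run; none was lower under any of them. Gbp3, Gbp7 and Gbp4 kept their direction and their call in all 11 alternatives, with log2 fold changes from 0.89 to 1.12, 0.93 to 1.14 and 1.19 to 1.45. Gbp9 ranged from 0.37 to 0.67 and lost its call in 4 of them. Gbp2 ranged from 0.05 to 0.24 and did not pass in any (adjusted p from 0.0679 to 0.718), and Gbp5 ranged from 0.58 to 1.07 in the 10 alternatives that could be fitted for it and did not pass in any. Same-numbered libraries deviated together from their group means (r = 0.66 across 10836 genes), but the labels do not say what the numbers share; with the replicate block 4 members were higher and none lower, and over all genes 3374 were higher and 3403 lower, against 3225 and 3290 without it. With DESeq2, 2159 genes were higher and 2358 lower. The log2 fold change of the immune marker S100a8 was 1.05 with all libraries, -3.54 without uniSTING replicate 1 and 2.10 without uniSTING replicate 2. It was -0.03 without Mock replicate 2 and 8.51 without Mock replicate 1. The latter leaves Mock at 0 counts, so that value depends on the prior count. The sign for S100a8 thus depended on which library was left out. Among the fits with all libraries, S100a8 did not pass in the fit reported (adjusted p = 0.522). It was called higher with the replicate block (1.05, adjusted p = 0.0232) and with no filter on low counts (adjusted p = 0.00617). Depth limits Gbp5, Gbp6 and Gbp8, where 3 counts over a group correspond to 0.0688 CPM in uniSTING and 0.0755 CPM in Mock.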
